A study of Mus musculus with 36 samples.

Results

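Calreticulin (Calr), calnexin (Canx), BiP (Hspa5), the endoplasmic reticulum Hsp90 (Hsp90b1) and the disulfide isomerases Pdia3, Pdia4 and Pdia6 fold newly made proteins in the endoplasmic reticulum. These 7 genes were followed by gene symbol through the deposited count tables of a Ribo-tag study of mouse brain. All 7 were listed in each table, of 12580 genes in the steady-state table and 12403 genes in the Lyve1 table, and all 7 passed the filter on low counts. The genes were picked with results of these data in view, and which comparison led to the choice is not recorded, so the adjusted p-values given for them are not independent evidence.

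The mice carried a split Cre and a Ribo-tag allele, which puts an HA epitope on a ribosomal protein in cells where both Cre parts are made. Their genotypes were CX3CR1-CCre+/-:Sall1-NCre+/-:Ribo-tag+/-, labelled Sall1+ microglia, and CX3CR1-CCre+/-:Lyve1-NCre+/-:Ribo-tag+/-, labelled Lyve1+ macrophage; all groups thus shared the CX3CR1-driven Cre part and the Ribo-tag allele. Ribosome-bound RNA was precipitated from brain homogenate with anti-HA (HA libraries) or with control IgG (IgG libraries). The groups were Sall1 HA, Sall1 IgG, Lyve1 HA and Lyve1 IgG at steady state, with 6 libraries each, and Lyve1 LPS HA and Lyve1 LPS IgG, 12 h after 2.5 mg/kg lipopolysaccharide (LPS) given into the peritoneum, with 4 libraries each. The labels give no age and do not say which libraries came from the same brain, so the p-values measure the spread between libraries, which may be partly technical. Libraries are named here by the 2 numbers of their column.

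Calr, a soluble protein, and Canx, its membrane-bound relative, are lectins that hold glycoproteins whose sugar chain has been trimmed to its last glucose, and Pdia3 works with them to form disulfide bonds. Hspa5 is the Hsp70 of this compartment and also restrains the sensors of the unfolded protein response, while Hsp90b1 finishes the folding of a narrower set of clients, among them Toll-like receptors and integrins in mouse macrophages. Pdia4 and Pdia6 are further thiol oxidoreductases, and Calr and Pdia3 are also part of the complex that loads peptides onto MHC class I.

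A feature that the choice of genes did not use is the endoplasmic reticulum stress element (ERSE), a promoter motif that was defined in the field on promoters of these very chaperones. The motif searched was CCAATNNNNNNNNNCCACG, on both strands, in the 300 bases from 250 before to 50 after each annotated start (RefSeq, GRCm38.p6). The 7 genes all had a promoter in that table, and 5 of them held an exact match, against 39 of 32851 promoters in all (0.119%). The stretches that hold the matches are printed to show the shared element and its placing, with the fixed letters of the motif in capitals, each read along the gene's own strand:
Calr: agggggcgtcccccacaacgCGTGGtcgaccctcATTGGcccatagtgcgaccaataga
Canx: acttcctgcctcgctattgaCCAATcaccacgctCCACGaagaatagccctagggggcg
Hspa5: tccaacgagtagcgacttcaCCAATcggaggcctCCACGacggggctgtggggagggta
Hsp90b1: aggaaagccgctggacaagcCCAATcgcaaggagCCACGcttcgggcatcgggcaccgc
Hsp90b1: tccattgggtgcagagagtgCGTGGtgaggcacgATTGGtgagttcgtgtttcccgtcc
Pdia6: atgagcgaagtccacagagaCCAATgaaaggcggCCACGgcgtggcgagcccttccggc

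In order, these lie at chr8:84847055-84847113 (minus strand), chr11:50325780-50325838 (minus), chr2:34772005-34772063 (plus), chr10:86705618-86705676 (minus), chr10:86705513-86705571 (minus) and chr12:17266471-17266529 (plus). In Calr and in the second Hsp90b1 stretch the motif read on the opposite strand. The match began 65 bases before the start in Hspa5, 98 in Pdia6, 145 in Canx and 162 in Calr, and at 212 and 107 bases in Hsp90b1. The promoters of Pdia3 (chr2:121413652-121413951) and Pdia4 (chr6:47813463-47813762) held no exact match in this window. A second motif, ERSE-II (ATTGGNCCACG), was in none of the 7 and in 12 of all promoters (0.0365%). A match describes the letters only.

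**Figure D1:**
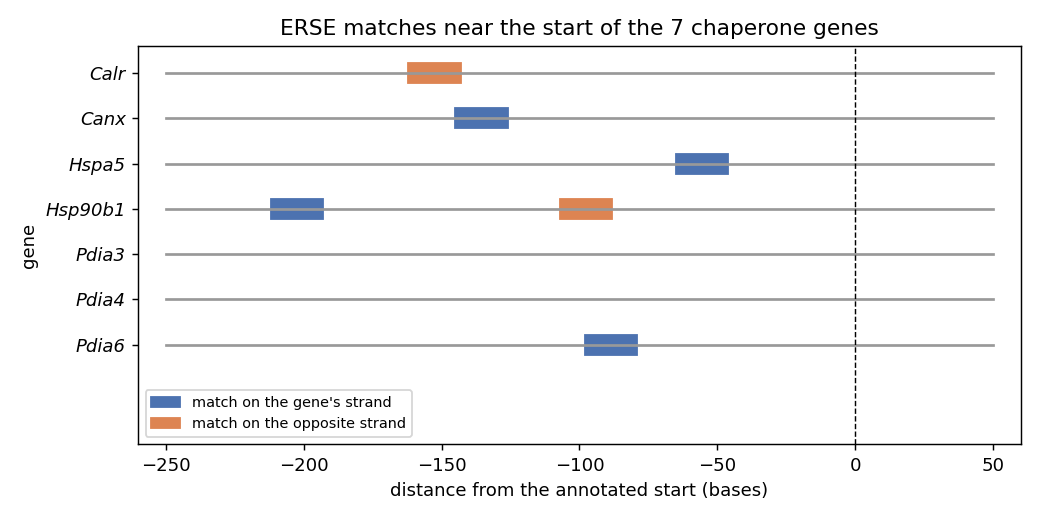
Position of exact ERSE matches (boxes) within the 300 bases around the annotated start of each gene; the horizontal axis is the distance from the start in bases and the colour gives the strand. Hsp90b1 holds 2 matches, Calr, Canx, Hspa5 and Pdia6 hold 1 each, and Pdia3 and Pdia4 hold none.

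Library totals ran from 362063 counts in Lyve1 LPS IgG library 1-2 to 1696679 in a Sall1 IgG library. The microglial marker list (16 of 16 genes listed) summed to 2533 to 4756 CPM (counts scaled to the library total) in Sall1 HA against 859 to 958 in Sall1 IgG, and the border macrophage list (10 of 11 listed) to 105 to 238 CPM in Lyve1 HA against 34.1 to 49.3 in Lyve1 IgG. Microglial markers were also higher in Lyve1 HA, at 1260 to 2056 CPM against 795 to 1079 in Lyve1 IgG, with 7 of 13 tested called higher and 0 lower. Over all genes 11.7% were higher and 14% lower in Lyve1 HA. Neuronal markers remained abundant in each group, at 6609 to 11070 CPM, so the HA libraries hold RNA of other brain cells as well. The choroid plexus list summed to 2101 to 3325 CPM in HA and 1149 to 1854 CPM in IgG libraries, a gap carried by Ttr (means of 2383 against 1130 CPM in the Lyve1 line at steady state); 1 of 5 of its tested genes was higher and 0 lower in Lyve1 HA, with a list median of -0.17. Counts of the Y-linked genes Ddx3y and Eif2s3y summed to 0 to 4 in the Lyve1 steady-state libraries and 15 to 60 in the Lyve1 LPS libraries, so LPS and this difference cannot be told apart. In the Sall1 line 4 of 6 HA and 4 of 6 IgG libraries held such counts. In bulk RNA of this kind, fewer cells of a type and less RNA per cell cannot be told apart.

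The comparison of HA with IgG at steady state asks which chaperone transcripts are held by the tagged ribosomes more or less than in the control precipitate. In the Lyve1 line Calr was lower in HA, and Hspa5 and Pdia3 were higher; in the Sall1 line Hsp90b1 was higher. Thus 3 of 7 passed the test in the Lyve1 line (2 higher, 1 lower), where 25.7% of the 9619 genes tested did so (11.7% higher, 14% lower), and 1 of 7, higher, in the Sall1 line, where 9.8% did (4.81% higher, 4.99% lower). The shares for the 7 genes are read against these backgrounds, and in the Lyve1 line a call in either direction was common. The median log2 ratio of the 7 was 0.29 in the Lyve1 line and 0.50 in the Sall1 line, with the median of all genes tested at 0.01 and -0.01.

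Among the lectins, Calr stood at 414, 546 and 613 CPM (lowest, median, highest) in Lyve1 IgG and at 223, 281 and 389 CPM in Lyve1 HA. Every HA library was below every IgG library, and the log2 ratio was -0.86 ± 0.16 (SE; edgeR quasi-likelihood test, adjusted p = 0.000278, 6 against 6 libraries). In the Sall1 line Calr ranged over 296, 448 and 637 CPM in IgG and 260.4, 319 and 420.1 CPM in HA, and these groups overlapped. Its log2 ratio there was -0.49 ± 0.16 (adjusted p = 0.0510), which missed the threshold. Without Sall1 IgG libraries 2-1 and 2-2, which held 296 and 360.3 CPM, it was -0.68 (adjusted p = 0.00322, range over 23 alternatives 0.00322 to 0.282). That setting was chosen after seeing the data and removes low IgG values, so a more negative ratio was built in and it is no evidence for a call. Calr also passed when any single library among Sall1 HA 1-2 and Sall1 IgG 2-1, 2-2 or 3-2 was left out, at adjusted p-values of 0.0155 to 0.0305. Canx, the membrane lectin, had 18.0, 26.2 and 36.6 CPM in Lyve1 IgG and 21.0, 30.4 and 56.3 CPM in Lyve1 HA. Its log2 ratios of 0.38 ± 0.28 in the Lyve1 line and 0.03 ± 0.27 in the Sall1 line did not pass (adjusted p = 0.335 and 0.962), so the 2 lectins did not show the same pattern of calls; the difference between them was not tested.

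Of the general chaperones, Hspa5 had 39.7, 52.6 and 69.6 CPM in Lyve1 IgG and 57.9, 109 and 123 CPM in Lyve1 HA. The groups overlapped in the 2 lowest HA libraries, 3-1 and 3-2, and the log2 ratio was 0.88 ± 0.29 (adjusted p = 0.0306). In the Sall1 line the values were 32.0, 46.1 and 122 CPM in IgG and 40.1, 91.1 and 135 CPM in HA. That log2 ratio of 0.61 ± 0.29 did not pass (adjusted p = 0.198), with the highest IgG value in library 2-2. Without Sall1 IgG libraries 2-1 and 2-2 the ratio was 1.11 (adjusted p = 0.00520), and without library 2-2 alone the adjusted p was 0.0230. Libraries 2-1 and 2-2 held the highest Hspa5 values of Sall1 IgG, and leaving out both was chosen after seeing the data. A higher ratio was thus built in, and that setting is no evidence for a call. Leaving out library 2-2 alone also removes the highest IgG value. Among single libraries left out, the Hspa5 call in the Lyve1 line held only for Lyve1 HA 3-1, Lyve1 HA 3-2 and Lyve1 IgG 2-1. Without any other single library the adjusted p lay between 0.0532 and 0.0694. With libraries of the same first number summed it was 0.175. Over all alternatives run the call held in 10 of 20.

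Hsp90b1 had 50.7, 75.9 and 102 CPM in Sall1 IgG and 90.2, 106 and 180.0 CPM in Sall1 HA. Of the 6 HA libraries 4 lay above the IgG range, and the log2 ratio was 0.79 ± 0.20 (adjusted p = 0.00838). With libraries of the same first number summed it was 0.83 (adjusted p = 0.0822), and without the Sall1 libraries that held Y-linked counts it was 0.71 (adjusted p = 0.232). In the Lyve1 line Hsp90b1 had 50.5, 71.6 and 94.9 CPM in IgG and 67.2, 85.8 and 110.5 CPM in HA, a log2 ratio of 0.29 ± 0.20 that did not pass (adjusted p = 0.299).

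Among the disulfide isomerases Pdia3, the partner of the lectins, had 2.25, 9.54 and 17.6 CPM in Lyve1 IgG and 14.9, 23.1 and 30.7 CPM in Lyve1 HA. The groups overlapped slightly and the log2 ratio was 1.19 ± 0.35 (adjusted p = 0.0130), on counts of 2 to 26 per IgG library and 16 to 35 per HA library; with libraries of the same first number summed the adjusted p was 0.0864. In the Sall1 line it had 6.74, 10.6 and 29.2 CPM in IgG and 9.06, 19.1 and 36.6 CPM in HA. That log2 ratio of 0.69 ± 0.34 did not pass (adjusted p = 0.208). Without Sall1 IgG library 2-2, which held the highest IgG value, the adjusted p was 0.0394. Pdia6, the gene with the smallest relative SD of the 7 in each IgG group, had log2 ratios of 0.12 ± 0.11 and 0.16 ± 0.11 in the Lyve1 and Sall1 lines (adjusted p = 0.454 and 0.394). Pdia4 was measured on only 1 to 24 counts per library at steady state, with log2 ratios of 0.03 ± 0.43 and 0.50 ± 0.40 that did not pass (adjusted p = 0.964 and 0.481).

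**Figure D2:**
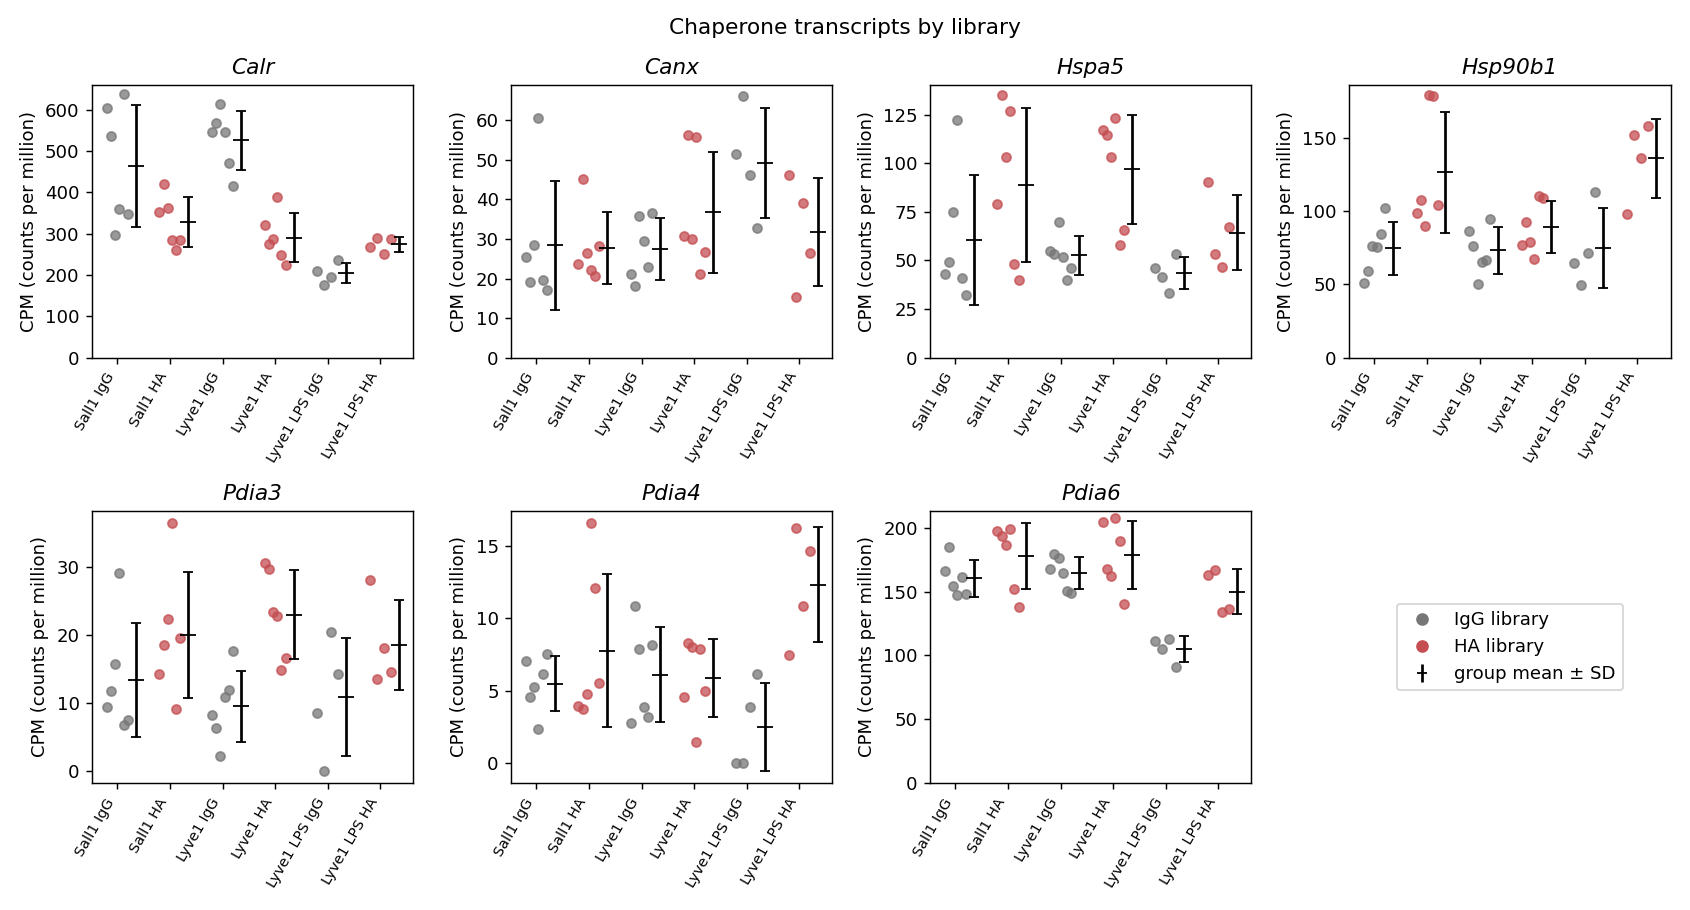
CPM of each gene (vertical axis, by library total) in every library of the 6 groups (horizontal axis); grey points are IgG libraries, red points HA libraries, and black bars the group mean ± SD. Calr falls from 414 to 613 CPM in Lyve1 IgG at steady state to 177 to 235 CPM after LPS, while the Lyve1 HA groups lie between 223 and 389 CPM.

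No member passed the test between the 2 lines. Between Sall1 HA and Lyve1 HA 0 of 7 passed by edgeR, where 1.4% of all genes did (1.24% higher, 0.166% lower); 1 of 7 had an unadjusted p under 0.05, and DESeq2 and limma-voom called 0. That gene was Hsp90b1, at a log2 ratio of 0.54 ± 0.20 (adjusted p = 0.191; 95% interval 0.14 to 0.94). For Calr the interval ran from -0.13 to 0.54 and for Pdia6 from -0.21 to 0.25. Between the IgG groups 0 of 7 passed by edgeR, DESeq2 or limma-voom and 0 had an unadjusted p under 0.05; edgeR called 0% of all genes there. The difference of HA enrichment between lines was called for 0 of 7 by edgeR, DESeq2 and limma-voom, with 0 at an unadjusted p under 0.05 and 0.218% of all genes called (0.208% higher, 0.0104% lower). For Calr that difference was 0.37 ± 0.23 (adjusted p = 0.768). The Calr call in the Lyve1 line and its absence in the Sall1 line are therefore not shown to differ. Without the Sall1 libraries that held Y-linked counts, which leaves Sall1 libraries 3-1 and 3-2, Hspa5 was lower (log2 ratio -0.97, adjusted p = 0.0194) and Hsp90b1 higher (0.79, adjusted p = 0.0245) in Sall1 HA than in Lyve1 HA. This setting was chosen after seeing the data and sets 2 Sall1 HA libraries against 6 of Lyve1 HA. Within Lyve1 HA, libraries 3-1 and 3-2 also held the lowest Hspa5 values (57.9 and 65.8 CPM) and the highest Hsp90b1 values (110.5 and 109 CPM). Line and column number therefore cannot be told apart in this setting.

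**Figure D3:**
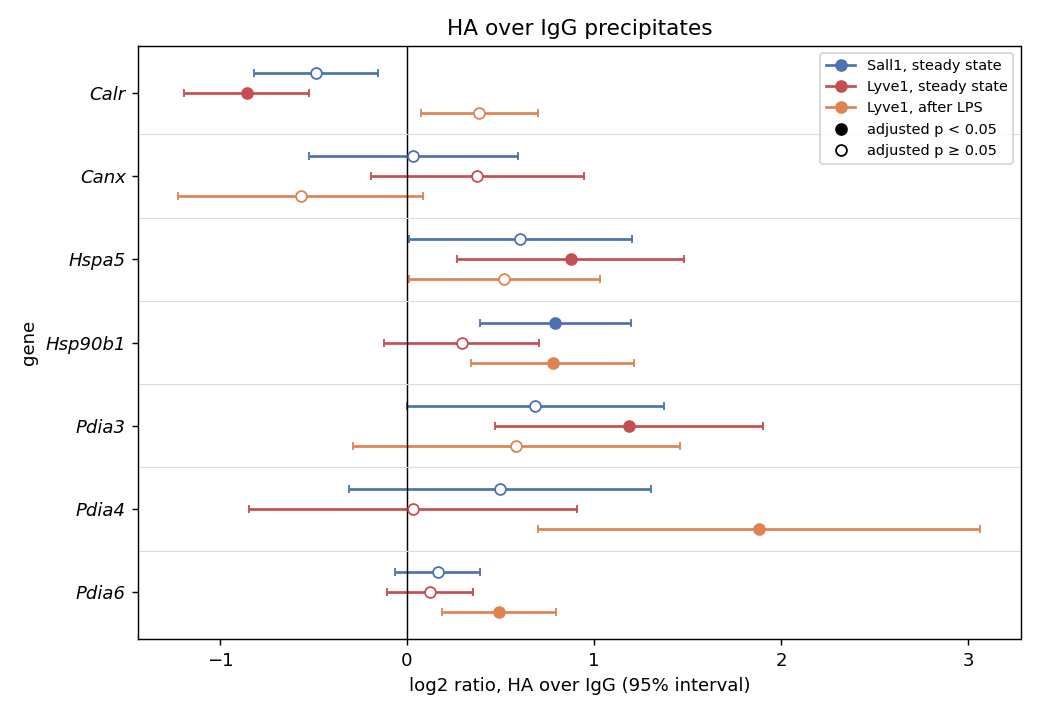
Log2 ratio of HA over IgG libraries (horizontal axis) for each gene (vertical axis), with 95% intervals from the fit over all genes; colours give the line and treatment, and filled points passed at an adjusted p under 0.05. Calr lies at -0.86 in the Lyve1 line at steady state and at 0.39 after LPS.

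LPS was compared with steady state in the Lyve1 line, in HA and in IgG libraries separately. In the IgG libraries Calr and Pdia6 fell, and in the HA libraries Hspa5 fell and Hsp90b1 rose. In IgG 2 of 7 passed, both lower, where 13.4% of the 9680 genes tested did (6.92% higher, 6.44% lower). In HA 2 of 7 passed, where 17.5% did (9.46% higher, 8% lower). The median log2 ratio of the 7 was -0.21 in IgG and -0.13 in HA, with medians of all genes of 0.01 and -0.02. The steady-state libraries here are the same 12 Lyve1 libraries as above.

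Calr in the LPS IgG libraries stood at 209, 177, 196 and 235 CPM, from counts of 146, 64, 153 and 230. Each of these was below the lowest steady-state IgG library, at 414 CPM. The log2 ratio was -1.31 ± 0.14 (edgeR, adjusted p = 2.22e-08, 4 against 6 libraries), at the 0.661 percentile of all genes tested. In the LPS HA libraries Calr stood at 269, 289.6, 249.9 and 287 CPM, within the steady-state HA range of 223 to 389 CPM. The log2 ratio there was -0.09 ± 0.14 (adjusted p = 0.684), with a 95% interval from -0.37 to 0.19. The test of the difference itself, the LPS response in HA minus that in IgG, gave 1.22 ± 0.20 for Calr (adjusted p = 0.00116), where 3.23% of all genes passed (1.64% higher, 1.59% lower). This was the only member called of 7.

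The Calr fall in IgG passed under each of 17 alternatives, at log2 ratios of -1.40 to -1.26, and the difference of responses under each of 27, at 1.17 to 1.33. Markers of other brain cells changed in the same IgG libraries, where 6.92% of all genes were higher and 6.44% lower. Of 8 oligodendrocyte markers 3 were lower and 0 higher after LPS, with a list median of -0.35, and the mean of Mag went from 616 to 315 CPM and that of Cnp from 656 to 314 CPM, while the sum of the list was 4280 to 6623 CPM before and 4853 to 6093 CPM after LPS. Of 12 neuronal markers 2 were higher and 0 lower; the list median was -0.14, and the sum of the list, 8479 to 10289 CPM before and 9541 to 10228 CPM after LPS, was carried in part by Camk2a, whose mean went from 1839 to 3557 CPM. Of 8 astrocyte markers 1 was higher and 0 lower; their sum of 783 to 1076 CPM before and 1704 to 1948 CPM after LPS differed mostly through Gfap, whose mean went from 144 to 801 CPM. Endothelial markers (7 of 8 listed) summed to 172 to 234 and 287 to 346 CPM, with 3 of 7 higher and 0 lower. The same lists also changed in the LPS HA libraries, where Calr did not pass and 9.46% of all genes were higher and 8% lower. There 4 of 8 oligodendrocyte markers were lower and 0 higher (list median -0.54), and 1 of 12 neuronal markers was higher and 1 lower. Of the astrocyte markers 3 of 8 were higher and 0 lower, and of the endothelial markers 6 of 7 were higher and 0 lower. The endothelial markers Pecam1 and Cdh5 passed the filter on low counts only in the fit with the LPS libraries, not in the steady-state fit. They may have entered through libraries where they were high, so the endothelial counts in HA and in IgG may be raised by the filter. No marker of these 4 lists that was listed was at 0 throughout a group, and the part of these cells in the Calr value was not tested.

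Canx gave a positive log2 ratio in the IgG libraries, with 51.5, 66.3, 46.1 and 32.8 CPM after LPS against 18.0 to 36.6 CPM before. The groups overlapped, and the log2 ratio of 0.83 ± 0.29 missed the threshold (adjusted p = 0.0583); it passed with DESeq2, limma-voom and a fit of only the groups compared (adjusted p = 0.0467, 0.0293 and 0.0183) and without Lyve1 IgG 3-2 or Lyve1 LPS IgG 2-2 (0.0456 and 0.0408). In HA Canx had 46.3, 15.3, 39.1 and 26.4 CPM after LPS, a log2 ratio of -0.13 ± 0.29 (adjusted p = 0.801). The difference between its responses, -0.96 ± 0.41, did not pass (adjusted p = 0.182).

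Hspa5 in the LPS HA libraries had 90.1, 53.2, 46.4 and 67.4 CPM against 57.9 to 123 CPM at steady state, so the groups overlapped. Its log2 ratio was -0.59 ± 0.21 (adjusted p = 0.0464). The call was lost, at adjusted p-values of 0.0752 to 0.188, on leaving out any single library among Lyve1 HA 1-1, 1-2, 2-1 and 2-2 and Lyve1 LPS HA 1-2, 2-1 and 2-2, and with libraries of the same first number summed (0.102). In IgG Hspa5 had 45.8, 41.4, 33.3 and 53.2 CPM after LPS, a log2 ratio of -0.21 ± 0.23 (adjusted p = 0.623).

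Hsp90b1 in the LPS HA libraries had 98.3, 152, 137 and 158 CPM against 67.2 to 110.5 CPM at steady state. Only library 1-1 fell within the steady-state range, and the log2 ratio was 0.58 ± 0.18 (adjusted p = 0.0271). Leaving out any single library among Lyve1 HA 1-1, 2-1 and 2-2 and Lyve1 LPS HA 1-2, 2-1 and 2-2 took the adjusted p to between 0.0549 and 0.0953, and summing libraries of the same first number took it to 0.0912. In IgG it had 64.4, 49.7, 71.8 and 114 CPM after LPS, a log2 ratio of 0.12 ± 0.20 (adjusted p = 0.767), and the difference of responses, 0.46 ± 0.27, did not pass (adjusted p = 0.340). Hspa5 and Hsp90b1 had calls of opposite sign in the same libraries. Both calls were lost with libraries of the same first number summed, and the difference between the 2 genes was not tested.

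Pdia6 in the LPS IgG libraries had 112, 105, 113 and 91.1 CPM against 148 to 179 CPM at steady state. The groups did not overlap, and the log2 ratio was -0.61 ± 0.14 (adjusted p = 0.00228), a call kept under each of 17 alternatives. In HA it had 163, 167, 134 and 136 CPM against 140.0 to 207 CPM, a log2 ratio of -0.26 ± 0.13 that did not pass (adjusted p = 0.169). Unlike for Calr, the difference of its responses, 0.35 ± 0.19, did not pass (adjusted p = 0.296).

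Pdia3 had 28.1, 13.5, 18.1 and 14.7 CPM in LPS HA and 8.59, 0, 20.5 and 14.3 CPM in LPS IgG, with log2 ratios to steady state of -0.26 ± 0.34 and 0.35 ± 0.42 (adjusted p = 0.638 and 0.651). Its count of 0 in Lyve1 LPS IgG library 1-2 allows up to 8.29 CPM, since 3 counts of that library's total is the limit; this covers counting error only. Pdia4 had 7.44, 16.2, 10.9 and 14.7 CPM in LPS HA, from counts of 9, 18, 15 and 10. In LPS IgG its counts were 0, 0, 3 and 6, where the 2 zeros allow up to 4.29 and 8.29 CPM. Neither LPS response of Pdia4 passed, at 0.96 ± 0.42 in HA (adjusted p = 0.116) and -0.86 ± 0.60 in IgG (adjusted p = 0.388).

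**Figure D4:**
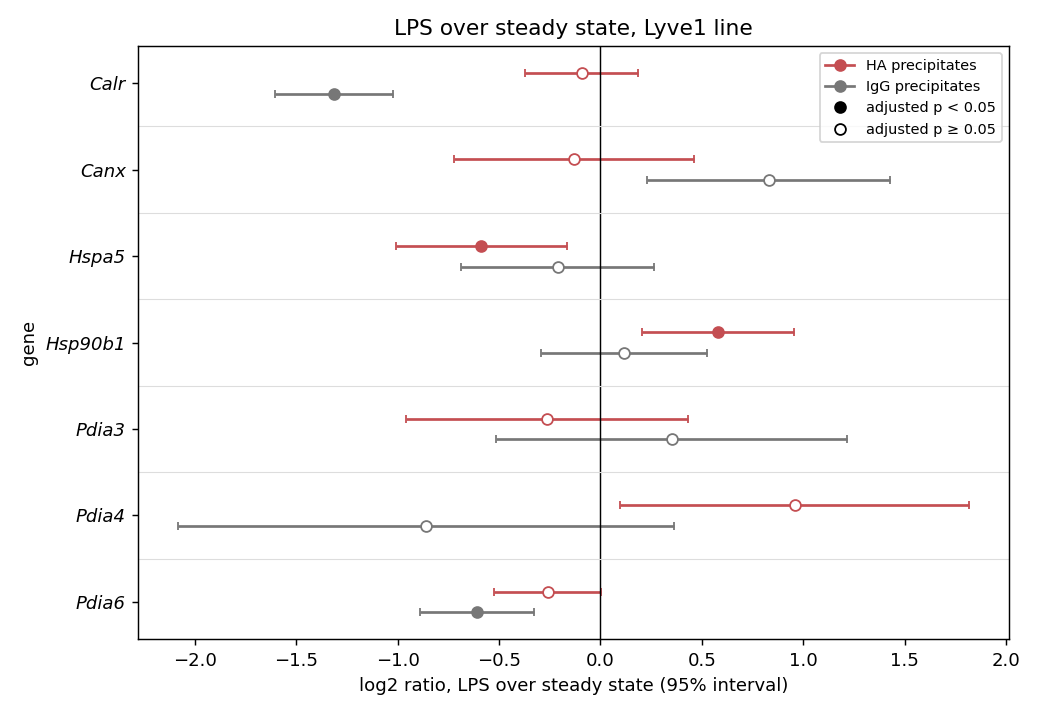
Log2 ratio of LPS over steady state in the Lyve1 line (horizontal axis) for each gene (vertical axis), in HA (red) and IgG (grey) libraries, with 95% intervals from the fit over all genes; filled points passed at an adjusted p under 0.05. Calr lies at -1.31 in IgG and -0.09 in HA.

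After LPS the HA libraries of the Lyve1 line were compared with their own IgG libraries. Hsp90b1, Pdia4 and Pdia6 were higher in HA, and Calr, which had been lower in HA at steady state, was no longer lower. In all 3 of 7 passed, each higher, where 9.62% of all genes did (5.22% higher, 4.4% lower), and the median log2 ratio of the 7 was 0.52 against 0.00068 for all genes. Hsp90b1 had a log2 ratio of 0.78 ± 0.21 (adjusted p = 0.0166), Pdia4 of 1.88 ± 0.58 (adjusted p = 0.0342) and Pdia6 of 0.49 ± 0.15 (adjusted p = 0.0320). For Pdia6 every HA library lay above every IgG library. For Pdia4 this held for the values as counted, but its IgG counts were only 0, 0, 3 and 6. The 0 of IgG library 1-2 allows up to 8.29 CPM, above the lowest HA value of 7.44 CPM, so a gap is not shown for Pdia4. How many of all genes had no overlap was not counted. For Calr the HA libraries, at 249.9 to 289.6 CPM, also lay above the IgG libraries, at 177 to 235 CPM, but the log2 ratio of 0.39 ± 0.15 did not pass (adjusted p = 0.109).

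These 3 calls rested on few libraries. The Hsp90b1 and Pdia4 calls were lost on leaving out Lyve1 LPS HA 1-2 or 2-2 or Lyve1 LPS IgG 1-1, 1-2 or 2-1 (adjusted p of 0.0554 to 0.0768 and of 0.0661 to 0.136), and the Pdia6 call on leaving out Lyve1 LPS HA 1-1 or 1-2 or any LPS IgG library (adjusted p of 0.0529 to 0.109). With libraries of the same first number summed none of the 3 passed (adjusted p = 0.0823, 0.0650 and 0.119). The remaining members had log2 ratios of -0.57 ± 0.32 for Canx, 0.52 ± 0.25 for Hspa5 and 0.58 ± 0.43 for Pdia3 (adjusted p = 0.280, 0.195 and 0.430).

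Over the 6 groups the order of mean Calr levels was Lyve1 IgG at 526 ± 71.6 CPM (SD), Sall1 IgG at 464 ± 147, Sall1 HA at 327 ± 61.0, Lyve1 HA at 290.4 ± 58.9, Lyve1 LPS HA at 274 ± 18.5 and Lyve1 LPS IgG at 204 ± 24.6 CPM. Neighbours in this order overlapped in their libraries, with the exception of the last pair. Pdia6 ran from 179 ± 26.5 CPM in Lyve1 HA to 105 ± 9.95 in Lyve1 LPS IgG, and there too only the last step, from Lyve1 LPS HA at 150.0 ± 17.3 CPM, had no overlap. Hspa5 ran from 96.9 ± 28.0 CPM in Lyve1 HA to 43.4 ± 8.33 in Lyve1 LPS IgG, with the 3 HA groups above the 3 IgG groups in mean but every pair of neighbours overlapping. The means of Hsp90b1 and Pdia3 likewise put the 3 HA groups first, led by Lyve1 LPS HA at 137 ± 27.0 CPM for Hsp90b1 and Lyve1 HA at 23.1 ± 6.51 CPM for Pdia3, again with overlapping neighbours. For Canx (27.4 ± 7.84 to 49.2 ± 13.9 CPM) and Pdia4 (2.50 ± 3.03 to 12.3 ± 3.95 CPM) each pair of neighbours overlapped.

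The 7 transcripts did not vary as 1 block. Over the 24 steady-state libraries, which share depth and group differences, Calr correlated with Pdia3 at Pearson r = -0.69 and with Hsp90b1 at -0.64; with group means removed these were -0.39 and -0.61. Canx and Hspa5 correlated at 0.63, and at 0.62 with group means removed. Calr and Pdia6 went from 0.04 to 0.59 once group means were removed. The genes most like Calr over these 24 libraries, by Pearson r of log2 CPM, were Atg9a (0.93), Abca3 (0.91), Clstn1 (0.91), Pomgnt2 (0.91) and Flot1 (0.90). Over the 20 libraries of the Lyve1 table they were Tuba4a (0.91), Syn2 (0.90), Csnk1d (0.90), Clstn1 (0.89) and Ndufv1 (0.88). To the mean of the 7 members the most alike were Fcgr3 (0.80), Bzw1, Sdcbp, Tmem59 and Syt1 (0.75, 0.75, 0.75 and 0.74) at steady state, and Ndufs8 (0.92), Mak16 (0.89), Xbp1 (0.88), Rbm42 (0.86) and Fbll1 (0.85) in the Lyve1 table.

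Other genes of the pathway were followed as lists. Of 26 other endoplasmic reticulum folding genes tested, 5 were higher and 2 lower in Lyve1 HA than in IgG at steady state, with a list median of 0.24; over all genes 11.7% were higher and 14% lower, so the share called was near the background. Erp29, a folding factor of the lumen, and Fkbp2, a prolyl isomerase, were higher in HA in the Lyve1 line (log2 ratios 0.56 ± 0.14 and 0.68 ± 0.13, adjusted p = 0.00452 and 0.000227) and in the Sall1 line (0.55 ± 0.14 and 0.44 ± 0.13, adjusted p = 0.0115 and 0.0244). The latter were the 2 of 26 called in the Sall1 line, where the list median was 0.14 and 9.8% of all genes were called. The 2 lower genes were Ganab, a subunit of glucosidase II, at -1.08 ± 0.23 and Uggt1, which adds the glucose back, at -0.75 ± 0.21 (adjusted p = 0.000896 and 0.00763). Prkcsh, the other subunit of glucosidase II, and Mogs, which trims the first glucose, had 0.32 ± 0.15 and -0.31 ± 0.19 and did not pass (adjusted p = 0.107 and 0.230).

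The translocon list, which brings proteins into the endoplasmic reticulum, had 5 of 19 higher and 0 lower in Lyve1 HA, against 11.7% higher and 14% lower over all genes. Sec61b, a channel subunit, rose to 143 ± 26.0 CPM in Lyve1 HA from 87.0 ± 13.5 CPM in IgG (adjusted p = 0.000294). It was also the only gene of that list called in the Sall1 line, at a log2 ratio of 0.72 ± 0.14 (adjusted p = 0.000803). In that line 4.81% of all genes were higher and 4.99% lower. Dad1 and Rpn2, subunits of the enzyme that attaches N-glycans, were higher in Lyve1 HA by 0.63 ± 0.14 and 0.46 ± 0.12 (adjusted p = 0.00161 and 0.00385).

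Among 12 regulators of the unfolded protein response tested, Nupr1, a stress-induced nuclear protein, and Xbp1, a transcription factor that acts on ERSE, were higher in Lyve1 HA (0.62 ± 0.18 and 0.42 ± 0.15, adjusted p = 0.0123 and 0.0347), and none was lower, where 11.7% of all genes were higher and 14% lower. In the Sall1 line Nupr1 was higher (0.68 ± 0.17, adjusted p = 0.0101) and Asns, which makes asparagine, lower (-0.64 ± 0.20, adjusted p = 0.0344). Of 12 genes of endoplasmic reticulum associated degradation only Vimp was called at steady state. It was higher in HA in both lines (0.74 ± 0.18 in Lyve1 and 0.70 ± 0.17 in Sall1, adjusted p = 0.00237 and 0.00811). Over all genes 11.7% were higher and 14% lower in Lyve1 HA, and 4.81% were higher and 4.99% lower in Sall1 HA.

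After LPS the HA libraries had 5 of 27 other folding genes higher and 2 lower, with a list median of 0.14, where 9.46% of all genes were higher and 8% lower. P4hb, the founding disulfide isomerase, rose to 251 ± 13.9 CPM from 162 CPM (log2 ratio 0.63 ± 0.13, adjusted p = 0.000735), and both glucosidase II subunits rose, Prkcsh by 0.62 ± 0.16 and Ganab by 0.66 ± 0.21 (adjusted p = 0.00668 and 0.0260). Fkbp2 fell by 0.62 ± 0.12 on the log2 scale (adjusted p = 0.000474). In the IgG libraries only Dnajb11, an Hspa5 cochaperone, was called of those 27, and it fell by 0.73 ± 0.23 (adjusted p = 0.0309). Over all genes 6.92% rose and 6.44% fell in IgG. P4hb had a log2 ratio of 0.12 ± 0.14 in IgG (adjusted p = 0.637), and the difference between its HA and IgG responses, 0.51 ± 0.19, did not pass (adjusted p = 0.123).

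Genes of degradation rose in HA in 3 of 12 cases after LPS, where 9.46% of all genes rose. These were Syvn1, an ubiquitin ligase whose promoter also held the ERSE letters (0.63 ± 0.17, adjusted p = 0.00751), Os9, a lectin (1.04 ± 0.31, adjusted p = 0.0188), and Derl1 (0.59 ± 0.21, adjusted p = 0.0484). Of 12 regulators of the unfolded protein response 1 was higher and 1 lower in HA, and 3 were higher and 0 lower in IgG. Over all genes 9.46% rose and 8% fell in HA, and 6.92% rose and 6.44% fell in IgG. Nupr1 rose in both precipitates, by 1.11 ± 0.19 in HA and 1.16 ± 0.22 in IgG (adjusted p = 8.99e-05 and 0.000245). Asns was lower in HA (-0.59 ± 0.21, adjusted p = 0.0444). Ppp1r15a and Creb3l1 were higher in IgG (0.92 ± 0.24 and 1.26 ± 0.44, adjusted p = 0.00889 and 0.0488). Of 19 translocon genes 2 were higher and 1 lower in HA, and 1 was higher and 1 lower in IgG, against the same shares of all genes. Ssr2 and Sec61a1 rose in HA (0.61 ± 0.14 and 0.49 ± 0.16, adjusted p = 0.00242 and 0.0259), and Ssr3 rose in IgG (1.26 ± 0.24, adjusted p = 0.000290). Sec11c, a signal peptidase subunit, fell in HA and in IgG by 0.87 ± 0.16 and 0.59 ± 0.16 on the log2 scale (adjusted p = 0.000157 and 0.0113).

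The peptide-loading genes, whose products work with Calr and Pdia3, rose in 3 of 3 cases in HA, where 9.46% of all genes rose. Tap1 did not pass the filter on low counts in the steady-state fit, only in the fit with the LPS libraries. Its means were 5.52 CPM in steady-state HA and 31.8 CPM in LPS HA. It thus entered through the libraries where it was high, so its rise was partly built in and adds no support. Tap1 and Tap2, the peptide transporter, rose by 2.45 ± 0.36 and 1.89 ± 0.27 (adjusted p = 6.18e-06 and 3.71e-06) and Tapbp, tapasin, by 0.91 ± 0.24 (adjusted p = 0.00753), next to log2 ratios of -0.09 for Calr and -0.26 for Pdia3 in the same libraries. In IgG Tap1 rose by 1.77 ± 0.41 (adjusted p = 0.00246) and Tap2 and Tapbp, at 0.83 ± 0.30 and 0.55 ± 0.26, did not pass (adjusted p = 0.0562 and 0.176). The difference of responses did not pass for Tap1, Tap2 or Tapbp (adjusted p = 0.511, 0.129 and 0.594). Endothelial markers summed to 462 to 564 CPM in LPS HA against 149 to 213 CPM in steady-state HA, and their part in the rise was not tested.

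Cytosolic chaperones served as a comparison outside the compartment. After LPS 2 of 20 rose and 5 fell in HA, and 2 rose and 7 fell in IgG. Over all genes 9.46% rose and 8% fell in HA, and 6.92% rose and 6.44% fell in IgG. Hspb1, a small heat shock protein, had the lowest adjusted p of the list in either precipitate, going from 17.8 to 135 CPM in HA and from 9.80 to 75.9 CPM in IgG (adjusted p = 1.84e-11 and 1.16e-10). Cct5, a subunit of the cytosolic chaperonin, fell by 0.46 ± 0.13 in HA and 0.59 ± 0.13 in IgG on the log2 scale (adjusted p = 0.0143 and 0.00202). Hsp90aa1 and Cct4 were the 2 of 20 whose LPS responses differed between HA and IgG. Both were more negative in HA (-1.37 ± 0.35 and -1.37 ± 0.39, adjusted p = 0.0278 and 0.0468), opposite in sign to Calr. For that difference 1.64% of all genes were higher and 1.59% lower.

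**Figure D5:**
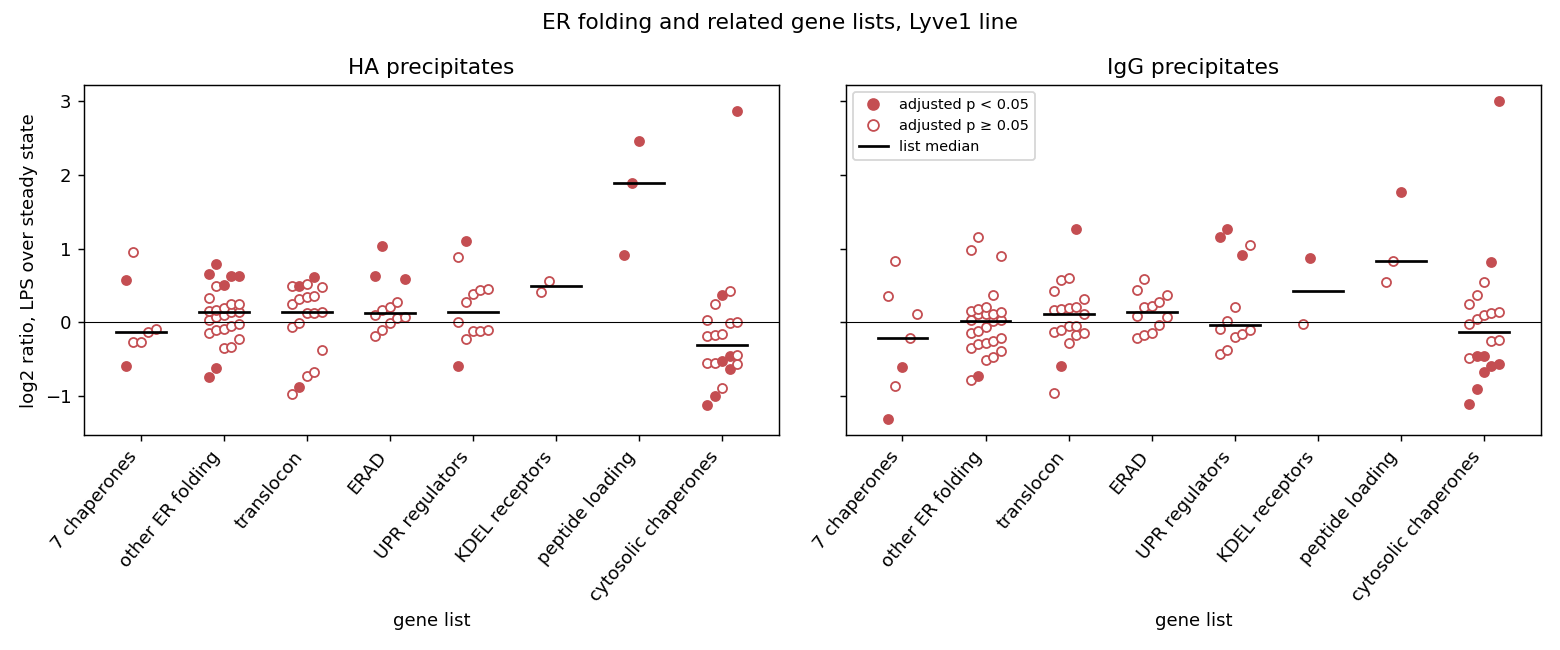
Log2 ratio of LPS over steady state (vertical axis) for each tested gene of 8 lists (horizontal axis) in Lyve1 HA (left) and IgG (right) libraries; filled points passed at an adjusted p under 0.05 and bars are list medians. All 3 peptide-loading genes passed in HA, of which Tap1 passed the filter on low counts only in the fit with the LPS libraries. The median of the 7 chaperones lay at -0.13 in HA and -0.21 in IgG.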

How the data were processed

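MARS-seq 3' libraries of RNA precipitated from mouse brain homogenate with anti-HA or control IgG were deposited as raw counts per gene, per the file headers and the labels' protocols. The genome build was mm9, per the submitters' processing notes; the aligner, the counter and the handling of duplicate reads are not given in the sources used here. From the values, each table lists genes that reach at least 6 counts in some library. The 2 tables share 12 Lyve1 steady-state libraries, with 0 counts that differ. Columns name a group but not which sample of it, and 28 further columns of libraries with no sample here were not used. The groups Sall1 LPS HA and Sall1 LPS IgG were not analysed here.

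Counts were tested with edgeR 4.0.16 (TMM, robust quasi-likelihood, filterByExpr with a minimum count of 10 and total of 15; R 4.3.3) in 1 fit of 4 groups per table, with 9619 and 9680 genes tested and Benjamini-Hochberg adjustment over all of them at 0.05. Each adjusted p in the text comes from these fits unless an alternative is named. DESeq2 1.42.0 and limma 3.58.1 (voom) were alternatives; the edgeR step was tested on simulated data. CPM values divide by library totals (362063 to 1696679), and intervals cover 95%. Levels were not compared between genes, since counts were not scaled by length.

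The genes named are the 7 members in every comparison and the 5 genes most like Calr or the member mean. From each list, names were drawn mainly from the 4 genes with the smallest p among those that passed. Not all of these are printed, and Kdelr2 in IgG after LPS is 1 left out. Some genes that did not pass, such as Prkcsh and Mogs at steady state, are given beside related genes. The list genes named are thus not a full account. Members and lists were chosen with earlier results of these data known. Same-numbered HA and IgG libraries had correlations of deviations of -0.10 to 0.35, and the main fit did not pair them. At steady state the IgG library most like an HA library often shared its first number. Sall1 HA 3-1 was most like Sall1 IgG 3-2 (0.64), but Sall1 HA 1-2 was most like Sall1 IgG 2-2 (0.39). Y-linked counts also split by first number alike in Sall1 HA and Sall1 IgG. Whether HA and IgG libraries are paired is thus not known. Between pairs of libraries of a group with the same first number, counts differed by more than sampling noise. Some such pairs were still more alike than others. In Sall1 IgG the deviations correlated at 0.40 for 2-1 and 2-2 and at -0.38 for 1-1 and 2-1. In Lyve1 LPS HA the order was reversed, at -0.39 for 1-1 and 1-2 and 0.11 for 1-1 and 2-1. Whether libraries of the same first number are independent is thus not known. Promoters were read from RefSeq tables of GRCm38.p6, and no coordinate was converted from mm9.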

Additional observations from a re-analysis of the deposited data

Results flagged for a closer look

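The LPS response of Calr differed between precipitates of the Lyve1 line: HA minus IgG was 1.22 on the log2 scale (edgeR interaction, adjusted p = 0.00116), with a fall in all 4 IgG libraries below all 6 steady-state ones. Canx stood out in a single library of each Sall1 group, at 45.2 CPM (61 counts) in Sall1 HA library 1-2, where the other 5 lay between 20.5 and 28.3 CPM, and at 60.6 CPM (52 counts) in Sall1 IgG library 2-2, where the others lay between 17.0 and 28.5 CPM. These are 2 of 42 sets of values examined by the gap of the highest or lowest value relative to the range, and chance flags about 1 in 20.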

How the results depend on the processing

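No log2 ratio of a called member changed sign under any alternative run. The calls of Calr in Lyve1 HA over IgG (20 alternatives, adjusted p from 2.24e-05 to 0.0155), in the IgG response to LPS (17) and in the difference of responses (27), and of Pdia6 in the IgG response (17), held throughout. The number of members called moved elsewhere. In Sall1 HA over IgG (1 called) it was 2 with DESeq2 and 2 with limma-voom, which added Calr, 0 with libraries of the same first number summed, 0 without the Sall1 libraries with Y-linked counts and 4 without Sall1 IgG libraries 2-1 and 2-2; leaving out single libraries gave 1 to 4. The last 2 settings were chosen after seeing the data. In Lyve1 HA over IgG (3) summing left 1, with Hspa5 and Pdia3 lost. In the IgG response (2) DESeq2, limma-voom and a fit of only the groups compared added Canx. In Sall1 HA over Lyve1 HA (0) it was 2 without the Y-linked Sall1 libraries. In the LPS response of Lyve1 HA (2) it was 1 with DESeq2 size factors, 1 with library totals, 1 with DESeq2, 1 with only the groups compared, where Hspa5 was lost each time, and 0 when summed; single libraries gave 0 to 2. In Lyve1 LPS HA over IgG (3) it was 1 with only the groups compared, where Pdia4 was filtered out, and 0 when summed; single libraries gave 0 to 3. DESeq2 gave Pdia4 no adjusted p there. The median of the 7 in the difference of responses ranged from -0.0028 to 0.41 (lowest without Lyve1 IgG 1-2) over single libraries left out. With the replicate number as a block, 3 members passed in Sall1 HA over IgG (Calr and Hspa5 added, adjusted p = 0.0301 and 0.0134) and no other count moved by more than 1.5 times. Over all genes the block raised the calls from 943 to 1242 in Sall1 HA over IgG and from 2472 to 2828 in Lyve1 HA over IgG. In Lyve1 LPS HA over IgG they went from 931 to 1340, and in the difference of LPS responses from 313 to 705. The labels do not say what the numbers mark, and not every same-numbered pair correlated above 0.1. The main fit therefore left the libraries unpaired, and whether they are paired is not known. The block could not be fitted to comparisons between lines or treatments. Depth limits Pdia3 and Pdia4 most, at 0 to 53 and 0 to 24 counts per library. The cause of these shifts was not tested.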

Other observations

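At steady state the libraries whose column number begins with 3 held the 2 lowest Hspa5 values in 4 of 4 groups: 57.9 and 65.8 CPM in Lyve1 HA (others 103 to 123), 39.7 and 46.1 in Lyve1 IgG (others 51.9 to 69.6), 40.1 and 48.3 in Sall1 HA (others 79.2 to 135) and 32.0 and 41.0 in Sall1 IgG (others 43.0 to 122). They held the 2 lowest Calr values in 3 of 4 groups. What this number marks is not stated in the labels. In the Sall1 line it coincides with the lack of Y-linked counts, whose part was not tested.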
